A study of Mus musculus with 8 samples.

Results

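The glutathione transferase genes described here are 10 genes of 6 classes, read in mouse oligodendrocyte precursor cultures kept at 31.5 °C or at 37 °C. They are Gsta2, Gsta3 and Gsta4 of the alpha class, Gstm1, Gstm2 and Gstm5 of the mu class, Gstp1 of the pi class, Gstt1 of the theta class, Gsto1 of the omega class and the microsomal transferase gene Mgst1. The members were taken as every probe set annotated to these symbols, which gave 16 of the 34945 probe sets that carry 1 gene symbol. A further probe set carries Gsta2 together with Gsta1 and Gm3776 and is described apart, since its signal cannot be given to 1 gene. Of the 16, 13 probe sets of 9 genes were bright enough to be tested, and 3 were not: the only probe set of Gstm2, 1 of 2 of Gsta3 and 1 of 2 of Mgst1.

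Glutathione transferases join the tripeptide glutathione to reactive, electron-poor compounds such as products of lipid peroxidation, quinones and drugs, which makes them soluble and ready for export. The classes differ in sequence, in the compounds they prefer and in the cells that hold them. In the brain the mu class is known mainly from astrocytes, while the pi enzyme is a known marker of oligodendrocytes. Many of the genes are targets of NRF2, the transcription factor that binds antioxidant response elements and is held in check by KEAP1.

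Both groups were primary cells of the hemispheres of 15-day ICR embryos, grown for 5 days in medium with 10% serum and then serum-free for 48 hr at either temperature. There were 4 arrays at 31.5 °C and 4 at 37 °C, numbered 1 to 4 in each group. A number of 3 mice per group is stated, but nothing says that the 4 arrays are separate cultures, so the p-values cover the spread between arrays, which may be technical.

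Each array gives a fluorescence signal per probe set. Before scaling, the trimmed mean signal differed between arrays by a factor of 1.89, and the array numbered 4 at 37 °C was the dimmest (scaling factor 1.60). Signals below are after scaling of the arrays to a common level. Levels can be compared between arrays for 1 probe set, not between probe sets. Changes are log2 differences, 31.5 °C minus 37 °C, with limma's standard error and p adjusted by the Benjamini-Hochberg method over all 22519 probe sets tested. The precursor markers Olig1, Pdgfra and Cspg4 read 6727 ± 390, 2469 ± 365 and 138 ± 34.5 at 31.5 °C (SD, n = 4). At 37 °C they read 6752 ± 646, 1798 ± 168 and 120 ± 22.0. Olig1 and Cspg4 lie outside the rule for named genes given below. Of 9 tested precursor markers 2 rose, 1 fell and 6 did not pass, against 6.73% of all genes tested that rose and 6.9% that fell. Markers of astrocytes, microglia and neurons had signals in both groups too. Because the cultures were measured in bulk, fewer cells of a type and less RNA per cell cannot be told apart.

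All 3 tested alpha class probe sets rose at 31.5 °C, and none of the 10 probe sets of the mu, pi, theta, omega and microsomal classes passed the test. Of the alpha sets, that of Gsta3 was tested only through its level at 31.5 °C. Its mean at 37 °C (35.7) was under the filter of 38.3, and the other probe set of Gsta3 was not tested. The alpha changes were 2.39 for Gsta2, 1.68 for Gsta3 and 1.17 for Gsta4, while the other 10 lay between -0.04 and 0.45 with a median of 0.25. Across all probe sets tested 13.4% passed and 6.52% were higher at 31.5 °C, and the median change was -0.005. With the replicate number as a block, which compares the arrays of 1 number with each other, 6 of the 13 member probe sets rose, against 12.4% of all probe sets tested: the 3 alpha sets, 1 of the 4 of Gstm1, that of Gstm5 and the tested one of Mgst1.

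Gsta2 encodes an alpha class enzyme that also reduces lipid hydroperoxides. Its own probe set read 339, 301, 579 and 375 in replicates 1 to 4 at 31.5 °C and 52.2, 64.1, 116 and 74.6 at 37 °C. Every array at 31.5 °C lay above every array at 37 °C, and replicate 3 was the highest in both groups. The change was 5.26-fold (2.39 ± 0.27 on the log2 scale, SE; adjusted p = 0.0016), the second largest rise of all probe sets tested. Within the 4 pairs of arrays it ranged from 2.23 to 2.70. The shared probe set, which also matches Gsta1, rose from 228 ± 42.9 to 827 ± 138 (SD, n = 4), a change of 1.86 ± 0.16 (adjusted p = 0.000539), without overlap between the groups.

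Gsta3 encodes an alpha class enzyme known for conjugating aflatoxin epoxide in the mouse. Its brighter probe set gave 135, 133, 109 and 83.8 at 31.5 °C in replicates 1 to 4, against 33.1, 37.7, 44.0 and 28.2 at 37 °C. Here too the groups did not overlap, with replicate 4 lowest in both. The rise was 3.21-fold (1.68 ± 0.19, adjusted p = 0.00144), and 1.31 to 2.02 within pairs. The mean at 37 °C was under the filter of 38.3, so Gsta3 was tested only through its level at 31.5 °C, and its place among the 3 alpha calls rests on that. With no filter its adjusted p was 0.00902. The other probe set of Gsta3 was at 20.3 ± 3.19 and 20.4 ± 6.37 (SD, n = 4), under the filter and higher at 31.5 °C in 2 of 4 pairs. The rise of Gsta3 was thus seen in 1 of its 2 probe sets, and the mean of both gave 0.85 (adjusted p = 0.0204).

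Gsta4 encodes the alpha class enzyme that prefers 4-hydroxynonenal, the toxic aldehyde of lipid peroxidation. Its signals were 6073, 5869, 5987 and 4305 at 31.5 °C and 2704, 2430, 2894 and 1902 at 37 °C. The array numbered 4 was lowest at both temperatures, and all 4 values at 31.5 °C exceeded all 4 at 37 °C. Gsta4 rose 2.25-fold (1.17 ± 0.16, adjusted p = 0.00361), and the 4 pairs gave closely similar changes of 1.05 to 1.27. The 4 values at 31.5 °C lay all above the 4 at 37 °C for 3 of the 13 tested member probe sets, those of the alpha class, and for 10.9% of all probe sets tested. Of these 3, the set of Gsta3 was tested only through its level at 31.5 °C.

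**Figure D1:**
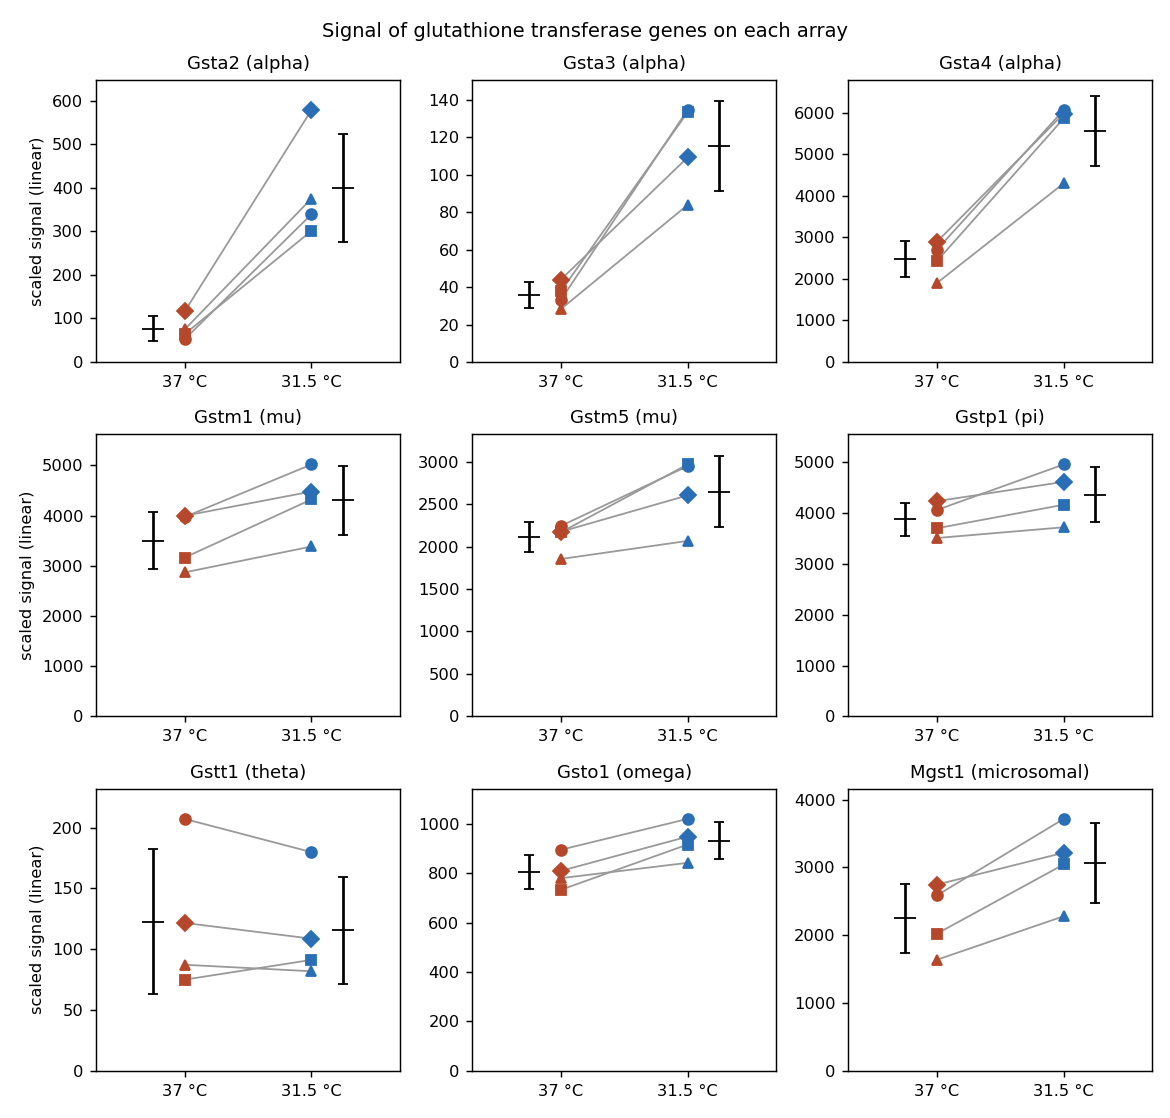
Scaled signal (linear, from 0) of the brightest probe set of each of the 9 tested genes on each array, red at 37 °C and blue at 31.5 °C; circle, square, diamond and triangle are replicates 1 to 4, grey lines join arrays of 1 number, and bars give mean ± SD (n = 4). The 3 alpha class genes separate by temperature, with Gsta4 between 4305 and 6073 at 31.5 °C and between 1902 and 2894 at 37 °C, while the other 6 genes overlap.

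The alpha genes lie apart in the genome: Gsta2 and Gsta4 are on chromosome 9 and Gsta3 is on chromosome 1. The 250 bases before the start sites of Gsta2 and Gsta3 are shown because both genes rose; the sequences are RefSeq's for build GRCm38.p6, which held a promoter for 9 of the 10 members, and Gsta4 had no entry. They lie at chr9:78347146-78347395 (minus strand) and chr1:21240335-21240584 (plus strand), written 5′ to 3′. Capitals mark matches, on either strand, to the core of the antioxidant response element (TGACNNNGC), to an AP-1 site (TGANTCA) or to the core bound by the aryl hydrocarbon receptor (GCGTG).
Gsta2: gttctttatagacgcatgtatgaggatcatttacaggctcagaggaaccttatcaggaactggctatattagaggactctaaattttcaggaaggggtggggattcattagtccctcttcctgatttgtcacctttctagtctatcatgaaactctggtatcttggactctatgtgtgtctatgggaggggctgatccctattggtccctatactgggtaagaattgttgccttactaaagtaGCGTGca
Gsta3: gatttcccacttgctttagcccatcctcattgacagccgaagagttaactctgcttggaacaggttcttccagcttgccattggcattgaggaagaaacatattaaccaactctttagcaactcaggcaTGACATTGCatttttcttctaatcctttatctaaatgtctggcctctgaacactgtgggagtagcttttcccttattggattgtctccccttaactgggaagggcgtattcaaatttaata
The Gsta3 window held 1 match to the antioxidant element core, beginning 121 bases before the start, and the Gsta2 window held none of it but 1 aryl hydrocarbon receptor core 7 bases before the start. Of all 32851 promoters of this length, 10.2% held the antioxidant core, 6.75% the AP-1 site and 28.2% the aryl hydrocarbon receptor core, so a match is a description of letters and not a site.

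The mu class genes Gstm1, Gstm2 and Gstm5 lie in 1 cluster on chromosome 3. Gstm1, whose enzyme is abundant in glia, has 4 probe sets, and the brightest read 5017, 4320, 4478 and 3384 at 31.5 °C and 3971, 3163, 3995 and 2868 at 37 °C. These ranges overlap, although the array at 31.5 °C was the higher in each of the 4 pairs. The change was 0.30 ± 0.16 (adjusted p = 0.243), or adjusted p = 0.0369 with the replicate block. The other 3 Gstm1 probe sets had changes of 0.25, 0.33 and 0.22, with adjusted p from 0.161 to 0.461, and from 0.0516 to 0.311 with the block. All 4 values were above 0 and of similar size, and 1 passed with the block. Probe sets ending in _x_at can pick up related transcripts, and mu class genes resemble each other, so part of these signals may belong to neighbours in the cluster.

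Gstm5, the mu class gene known from brain and testis, gave 2946, 2966, 2602 and 2066 at 31.5 °C against 2242, 2167, 2174 and 1853 at 37 °C. A single array at 31.5 °C, replicate 4, fell within the range of the 37 °C group. The change was 0.32 ± 0.13 (adjusted p = 0.15), or adjusted p = 0.0337 with the block, and adjusted p = 0.0378 when that array was left out (0.43). Gstm2 was too dim to be tested: it read 38.1, 35.4, 31.6 and 47.2 at 31.5 °C and 23.8, 28.3, 24.2 and 47.4 at 37 °C, higher at 31.5 °C in 3 of 4 pairs and overlapping through replicate 4. The Gstm5 promoter (chr3:107895604-107895853, plus strand, GRCm38.p6) is shown because it held all 3 motifs, marked as above, in a gene whose change was small.
Gstm5: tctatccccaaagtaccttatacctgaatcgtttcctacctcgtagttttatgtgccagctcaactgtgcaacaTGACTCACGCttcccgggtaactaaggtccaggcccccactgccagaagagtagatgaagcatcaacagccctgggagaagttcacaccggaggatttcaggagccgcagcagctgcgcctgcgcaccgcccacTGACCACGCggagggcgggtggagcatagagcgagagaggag
In this window the antioxidant core begins 42 bases and the AP-1 site 176 bases before the start, and each overlaps an aryl hydrocarbon receptor core read on the opposite strand.

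Gstp1, the pi class gene whose protein marks mature oligodendrocytes, had signals of 4951, 4160, 4610 and 3717 at 31.5 °C and 4056, 3697, 4229 and 3506 at 37 °C. The groups overlapped, the pairs differed by 0.08 to 0.29, all upward, and the change was 0.17 ± 0.11 (adjusted p = 0.373; 0.131 with the block). Its 95% interval, -0.09 to 0.42, leaves out a change of the size seen for any tested alpha probe set. Of the markers of myelinating oligodendrocytes, 6 of the 7 tested fell and none rose, against 6.9% of all genes tested that fell. Their part in the value of Gstp1 was not tested. The adjusted p of Gstp1 was above 0.05 under every alternative processing tried, from 0.131 to 0.644.

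Gstt1 encodes a theta class enzyme that acts on small halogenated compounds. It read 180, 91.3, 109 and 81.9 at 31.5 °C and 207, 75.0, 122 and 87.3 at 37 °C. Replicate 1 was the highest in both groups, and the change was small beside its error (-0.04 ± 0.34, adjusted p = 0.953; higher at 31.5 °C in 1 of 4 pairs). The sign of this value flips with common median scaling, with array weights and, among others, without replicate 1 at 37 °C (0.25), so no direction is given. Gsto1, of the omega class, encodes an enzyme that reduces dehydroascorbate. Its steadier probe set gave 1019, 915, 947 and 841 at 31.5 °C and 894, 732, 809 and 779 at 37 °C, overlapping in replicate 4 at 31.5 °C and replicate 1 at 37 °C, a change of 0.21 ± 0.10 (adjusted p = 0.186). The other varied from 307 to 1352 at 31.5 °C and from 376 to 1110 at 37 °C, and its pairs ran from -1.26 to 1.26, so its direction differed between pairs.

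Mgst1 encodes a membrane-bound transferase and peroxidase of the endoplasmic reticulum and outer mitochondrial membrane. Its bright probe set read 3714, 3043, 3216 and 2280 at 31.5 °C, against 2588, 2022, 2745 and 1638 at 37 °C. Replicate 4 was lowest at both temperatures and made the groups overlap, while each of the 4 pairs was higher at 31.5 °C by 0.23 to 0.59. The change was 0.45 ± 0.20 (adjusted p = 0.167), the largest outside the alpha class, or adjusted p = 0.0143 with the block. The second probe set was under the floor on all 8 arrays, at most 9.23, and gives no value. The promoters of Gstp1 (chr19:4037913-4038162, minus strand) and Mgst1 (chr6:138140277-138140526, plus strand; the upstream of 2 in the table) are shown for comparison with those of the alpha genes, in build GRCm38.p6 and with the same marks.
Gstp1: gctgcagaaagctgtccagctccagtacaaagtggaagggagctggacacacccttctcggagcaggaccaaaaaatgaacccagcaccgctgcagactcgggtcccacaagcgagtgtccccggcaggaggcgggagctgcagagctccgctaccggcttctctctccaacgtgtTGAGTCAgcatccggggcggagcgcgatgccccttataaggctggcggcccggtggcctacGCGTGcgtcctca
Mgst1: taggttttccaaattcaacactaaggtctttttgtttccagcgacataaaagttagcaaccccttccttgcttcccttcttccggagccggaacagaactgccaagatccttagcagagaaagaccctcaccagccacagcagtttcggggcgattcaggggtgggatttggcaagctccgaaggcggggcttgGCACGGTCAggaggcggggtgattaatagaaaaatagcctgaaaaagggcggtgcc
Gstp1 held 1 AP-1 site 74 bases and 1 aryl hydrocarbon receptor core 13 bases before the start, and Mgst1 held 1 antioxidant core on the opposite strand, 56 bases before the start. In all, the antioxidant core was found in 3 of the 11 promoters of members, against 10.2% of all promoters of this length. These belong to 3 of the 9 members with a promoter in the table: Gsta3, Gstm5 and Mgst1. Gsta3 rose, and the other 2 passed only in the fit with the block and, for Gstm5, without replicate 4 at 31.5 °C. Gsta2, which rose, and Gstm1, of which 1 probe set passed with the block, held no such core. The part of these matches in the changes was not tested.

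**Figure D2:**
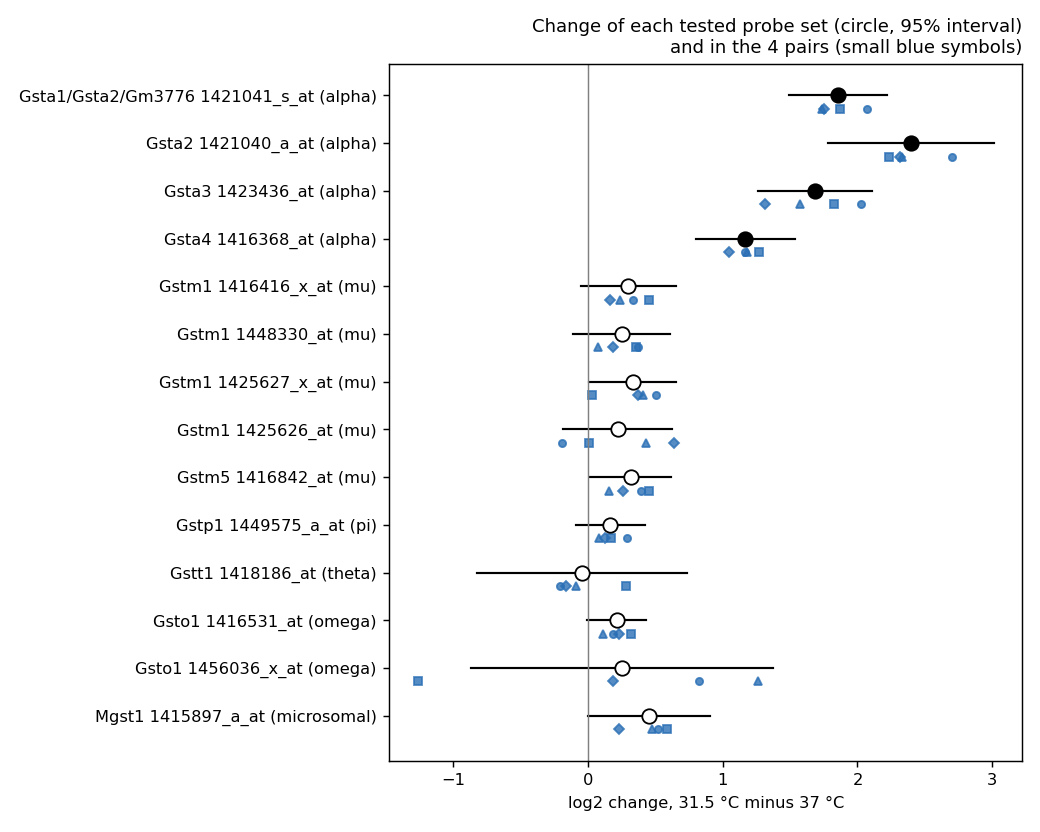
Log2 change, 31.5 °C minus 37 °C, of the 13 tested probe sets of the members and the shared alpha probe set (circles, filled where adjusted p was under 0.05, with 95% intervals from limma) and the difference within each of the 4 pairs of arrays (blue; circle, square, diamond and triangle for pairs 1 to 4). The alpha probe sets lie between 1.17 and 2.39, and the 10 others between -0.04 and 0.45, with the noisy Gsto1 set spanning -1.26 to 1.26.

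Whether the classes changed unequally was asked of ratios within each array, in which the scaling cancels. The brightest probe set of each class was set against that of every other class, and the alpha and mu genes against each other, 19 pairs in all. The ratio of Gsta4 to Gstm1 lay between 0.28 and 0.44 (log2) at 31.5 °C and between -0.59 and -0.38 at 37 °C, a change of 0.87 (95% interval 0.72 to 1.02). For Gsta4 the change of the ratio was 1.0 (0.76 to 1.24) against Gstp1, 0.71 (0.53 to 0.89) against Mgst1, 0.95 (0.61 to 1.30) against Gsto1 and 1.21 (0.38 to 2.04) against Gstt1. In these 5 pairs the groups did not overlap, and the exact two-sided permutation test gave p = 0.0286 for each, the smallest it can give with 4 against 4 arrays. Adjusted over the 19 pairs this became 0.0776, so no pair passed at 0.05. An adjusted p under 0.05 would have required more of the 19 pairs to reach that smallest p. This permutation test and the intervals treat the arrays as unpaired, although the replicate numbers pair them. With that pairing, the exact sign-flip permutation test gave p = 0.125 for each of the 5 ratios of Gsta4 to the other classes. This is the smallest p the sign-flip test can give with 4 pairs of arrays, so no ratio could pass at 0.05 with it.

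Within the alpha class the ratio of Gsta2 to Gsta4 changed by 1.23 (0.40 to 2.06) and that of Gsta3 to Gsta4 by 0.52 (0.25 to 0.78), both at the smallest exact p of 0.0286 (adjusted 0.0776). Between Gsta2 and Gsta3 the difference was 0.71, with an interval of -0.18 to 1.60 (exact p = 0.171, adjusted 0.271). Among the other classes Gsto1 against Mgst1 changed by -0.24 (-0.66 to 0.18; adjusted exact p = 0.418) and Gstp1 against Mgst1 by -0.29 (-0.60 to 0.03; adjusted exact p = 0.181). Gstm1 against Gstp1 changed by 0.13 (-0.05 to 0.31; adjusted exact p = 0.271) and Gstp1 against Gsto1 by -0.05 (-0.20 to 0.11; adjusted exact p = 0.575). The ratio of Gstm1 to Mgst1 changed by -0.16 (-0.31 to -0.0023; exact p = 0.0571, adjusted 0.136). Gstm1 and Gstm5 differed by -0.02 (-0.25 to 0.22; adjusted exact p = 0.857).

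**Figure D3:**
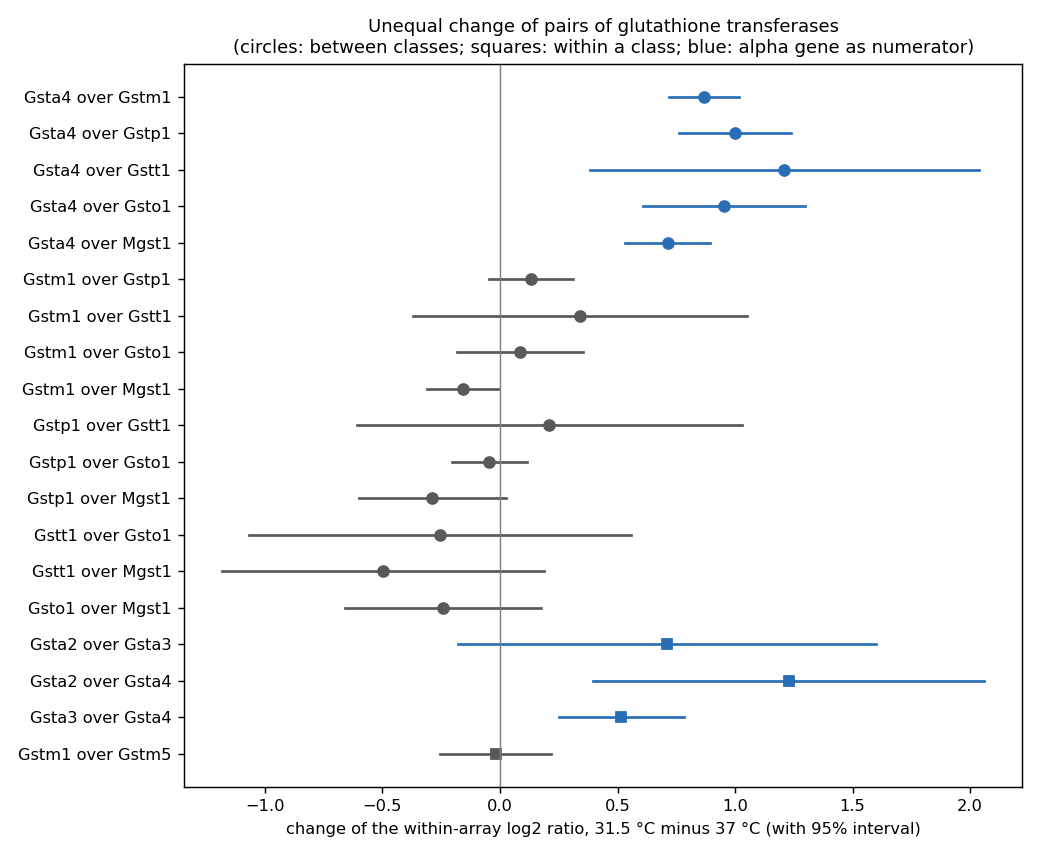
Change of the log2 ratio of 2 genes within an array, 31.5 °C minus 37 °C, with its 95% interval from the spread between arrays, for the 15 pairs of classes (circles) and the 4 pairs within the alpha and mu classes (squares); blue marks ratios with an alpha gene as numerator. Ratios of Gsta4 to the other classes changed by 0.71 to 1.21, and the other pairs of classes by -0.50 to 0.34.

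The genes whose signal followed each class most closely were read from correlations over the 8 arrays, which share the temperature and the pairing. For Gsta4 they were Srxn1, which restores oxidised peroxiredoxins (Pearson r = 0.999), Slc7a11, the cystine importer (0.996), and Gclm, the modifier subunit of glutamate-cysteine ligase (0.996). For Mgst1 they were Slc25a20, the mitochondrial carnitine carrier (0.993), Pak1ip1 (0.988) and Ube2d2a (0.988). Gstm1 followed Slc25a20 too (0.988 and 0.984 for its 2 probe sets) and Nudt21 (0.986), and Gstp1 followed Suox (0.983), Fam229b (0.983) and Stub1 (0.977).

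Further transferases were read as a list of their own. Of 18 further genes, 15 had a probe set of their own and 8 were tested: 2 rose, 0 fell and 6 did not pass, against 6.73% of all genes tested that rose. The list's median change was 0.06, beside -0.003 over all genes. Gstm4, a neighbour of Gstm1, rose from 35.3 ± 3.81 to 52.2 ± 6.55 (0.56 ± 0.12, adjusted p = 0.0186), and Ptges, the microsomal prostaglandin E synthase of the same superfamily as Mgst1, from 36.8 ± 7.37 to 58.9 ± 12.3 (0.67 ± 0.19, adjusted p = 0.0463). Both means at 37 °C were under the filter, so both genes were tested only through their levels at 31.5 °C, and an intensity trend in the variance ended both calls (adjusted p = 0.0654 and 0.0666). Gstm4 also lost its call without replicate 1 or 3 at 31.5 °C (adjusted p = 0.0515 and 0.0574), and over its alternatives the adjusted p of Ptges reached 0.129. Gstm7 had -0.29 ± 0.11 (adjusted p = 0.112), its 4 values at 31.5 °C all below those at 37 °C. The microsomal gene Mgst3, named after its value was seen, had -0.32 ± 0.13 (adjusted p = 0.149). It was higher at 31.5 °C in 0 of 4 pairs, the opposite direction to Mgst1 (0.45), and neither gene passed.

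Genes of glutathione synthesis and turnover, a list that also holds genes of its breakdown, moved in both directions. Among 14 tested, 6 rose, 1 fell and 7 did not pass, against 6.73% of all genes tested that rose and 6.9% that fell. The list's median change was -0.002. Those that rose were Gclm by 1.02 (adjusted p = 0.00198) and Gclc by 0.62 (adjusted p = 0.0213), the subunits of glutamate-cysteine ligase, Gss by 0.70 (adjusted p = 0.0116), the glutathione synthetase, Gsr by 1.14 (adjusted p = 0.015), the reductase that recycles glutathione, and Slc7a11 by 1.13 (adjusted p = 0.00729) and Slc3a2 by 0.43 (adjusted p = 0.0226), the chains of the cystine importer. The gene that fell was Cth, which makes cysteine from cystathionine, from 119 ± 14.1 to 61.0 ± 11.5 (-0.98 ± 0.15, adjusted p = 0.00537). Chac1, which breaks glutathione down, and Ggct, a turnover gene, had -0.48 and -0.36 (adjusted p = 0.0566 and 0.0931) and passed with the block (adjusted p = 0.0131 and 0.0144). Of these genes Gss, Gclc, Gsr, Slc3a2, Chac1 and Ggct lie outside the rule for named genes and were chosen after their values were seen, to account for the list.

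Steps before and after conjugation were read in 3 lists. Over all genes tested 6.73% rose and 6.9% fell, and with the block 12.4% of all probe sets tested rose. Of 6 tested genes of conjugate export and mercapturate formation, 2 rose and 0 fell: Abcc4 by 0.94 (adjusted p = 0.0048) and Abcc1 by 0.57 (adjusted p = 0.0103), pumps that carry glutathione and its conjugates out of the cell. Abcg2 had 0.46 ± 0.16 (adjusted p = 0.0852; 0.0457 with the block). Of 9 glutathione peroxidases and glutaredoxins, the glutaredoxin gene Glrx alone rose, by 0.80 (adjusted p = 0.0186), and 0 fell. The adjusted p of Glrx was 0.0593 with no filter and 0.0518 without replicate 3 at 31.5 °C. Gpx1 had -0.23 ± 0.11 (adjusted p = 0.187) and Gpx8 -0.26 ± 0.14 (adjusted p = 0.252). Of 16 genes of aldehyde, quinone and epoxide detoxification, 4 rose and 0 fell. With the replicate block 6 rose, the further 2, named after their values were seen, being Ephx1, an epoxide hydrolase gene, and Aldh3a2, an aldehyde dehydrogenase gene (0.46 and 0.42, adjusted p = 0.0163 and 0.0364 with the block). Aldh3a1, an aldehyde dehydrogenase, rose by 1.98 (adjusted p = 0.000453), Ptgr1, a reductase of reactive alkenals, by 1.30 (adjusted p = 0.00407), Cbr3, a carbonyl reductase, by 0.72 (adjusted p = 0.00508), and the quinone reductase Nqo1, named after its value was seen to complete the count, by 1.72 (adjusted p = 0.00516). The mean of Aldh3a1 at 37 °C (22.9 ± 2.51) was under the filter, so it was tested only through its level at 31.5 °C, and with the floor at the 50th percentile its change was 1.22.

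**Figure D4:**
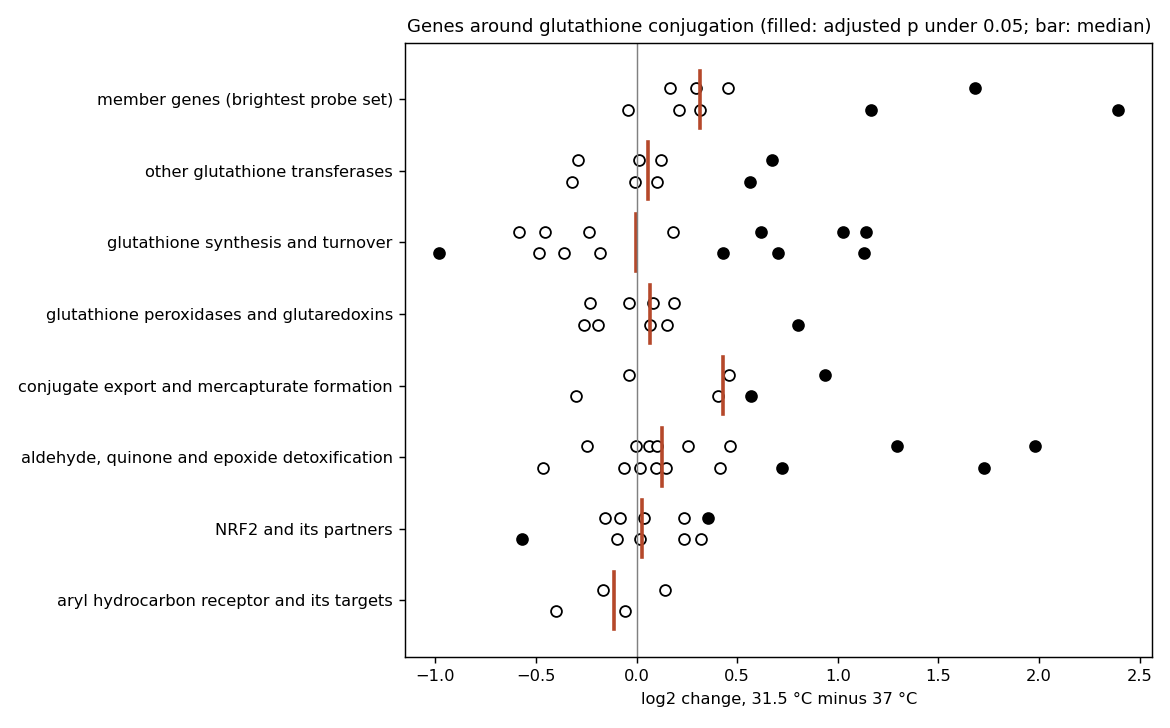
Log2 change, 31.5 °C minus 37 °C, of each tested gene (brightest probe set) in the member group and in 7 lists around glutathione conjugation; filled circles had an adjusted p under 0.05, bars are medians. In the synthesis and turnover list 6 genes rose and 1 fell, in the detoxification list 4 rose, and of the aryl hydrocarbon receptor list 0 of 4 passed. Over all genes tested 6.73% rose and 6.9% fell.

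The regulators were read next, beside the same shares of 6.73% of all genes tested that rose and 6.9% that fell. Of 10 tested genes of NRF2 and its partners, 1 rose, 1 fell and 8 did not pass. With the block 3 rose and 1 fell. Of all 22519 probe sets tested, 5938 passed with the block, and 12.4% of all were higher at 31.5 °C. Nfe2l2, which encodes NRF2, was at 1012 ± 125 and 1131 ± 187 (-0.16 ± 0.14, adjusted p = 0.51). A dim second probe set of Nfe2l2, under the filter and not tested, read 24.8 to 41.6 at 31.5 °C and 1.22 to 6.61 at 37 °C, all 4 of the latter under the floor of 9.80. The mean over both probe sets therefore gave 0.77 (adjusted p = 0.00329), the opposite sign. Keap1 rose by 0.35 ± 0.08 (adjusted p = 0.0196, up to 0.0814 with common median scaling), and its second probe set had 0.35 ± 0.12 (adjusted p = 0.0841). Bach2, a repressor that binds related elements, fell by 0.57 (adjusted p = 0.0445, and 0.113 with no filter), while Sqstm1, an adaptor protein gene, had 0.32 ± 0.10 (adjusted p = 0.059; 0.035 with the block). Bach2 lost its call in 9 of 24 alternative settings and Keap1 in 6 of 24. Of 4 tested genes of the aryl hydrocarbon receptor, 0 passed in limma at an adjusted p under 0.05 and 0 were under an unadjusted p of 0.05, also with the block at the adjusted threshold. Among them Ahr had -0.40 ± 0.23, Tiparp 0.14 ± 0.11 and Arnt -0.16 ± 0.15 (adjusted p = 0.28, 0.459 and 0.521).

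Markers of the cell types in these cultures were read beside the transferases. Over all genes tested 6.73% rose and 6.9% fell. With the block 5938 of the 22519 probe sets tested passed, 2799 of them higher at 31.5 °C. Of 10 astrocyte markers 1, S100b, fell and none rose, with a median of -0.34. Their summed signal ranged from 10017 to 17505 at 31.5 °C and from 13203 to 22963 at 37 °C, and with the block 5 fell. The 9 tested microglia markers gave 1 fall, Fcrls, and none rose, and with the block 4 fell (median -0.29; summed signal 5366 to 9467 against 5848 to 13016 over all 10). Precursor markers gave 2 rises, Pdgfra and Lhfpl3, 1 fall, Gpr17, and 6 that did not pass (median -0.14, summed signal 18242 to 20888 against 18965 to 22451). Gpr17 fell from 2713 ± 308 at 37 °C to 1509 ± 91.5 at 31.5 °C (-0.84 ± 0.10, adjusted p = 0.00217) and kept its call in all 24 alternative settings. Myelinating markers summed to 9547 to 13622 against 18924 to 23581 and did not overlap. Of 10 neuron markers 1 rose, Nefm, and 1 fell, Gap43, and with the block 1 rose and 3 fell. Of 3 endothelial and 8 fibroblast markers 0 passed (1 and 3 fell with the block), with the endothelial markers Pecam1, Tek and Kcnj8 at or under the floor on average. Several of these calls were lost under alternative settings: Pdgfra in 9, Lhfpl3 in 8, Gap43 in 8 and Nefm in 5 of 24, and Fcrls in 7 of 23, most of them with 1 array left out. The part of these shifts in the transferase values was not tested.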

How the data were processed

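Total RNA was hybridised to 8 Affymetrix mouse arrays. The deposited table holds linear intensity values per probe set, for which the submitters' processing notes name MAS5. No version, scaling target or detection calls are given in the sources used here. MAS5 works on each array alone, so low signals are noisy and levels between arrays depend on the scaling.

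The 64 control probe sets were left out, leaving 45037. Arrays were scaled to a common 2% trimmed mean, the 25th percentile (9.80) was set as the lowest value, and the log2 scale was used. The 22519 probe sets with a mean at or above the median (38.3) were tested with limma 3.58.1 in R 4.3.3 (lmFit and eBayes, two-sided, temperature as the only term, Benjamini-Hochberg adjustment, threshold 0.05). Probe sets were named through GEO's platform annotation, updated by Entrez ID. For lists, a gene stands for its brightest probe set.

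Arrays of 1 replicate number deviated together from their group means (correlations of 0.522, 0.385, 0.442 and 0.578, against at most 0.00334 for different numbers), so the numbers pair the arrays; results with the replicate block stand beside a value where a call changes.

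Members and lists were chosen with earlier results of these data known. Named genes are all member probe sets, up to 3 genes of smallest p per list, Nfe2l2 and Keap1, and the 3 probe sets that correlate best with 4 classes. Genes named outside this rule are said to be so beside their values. The marker genes that this rule takes are given within the counts of their lists. No pair of arrays shared over 0.708% of its values. On simulated arrays of 22519 probe sets the procedure recovered 24% of changes of 0.5, 68% of changes of 1 and 96.4% of changes of 2 (log2). The simulated arrays had independent noise without pairing and far fewer changed probe sets than passed in the data, so these shares may not hold here. Alternatives were other scalings, floors, filters and probe set summaries, an intensity trend, array weights, the block, and leaving out each array or pair. Figures were drawn with matplotlib 3.10.9.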

Additional observations from a re-analysis of the deposited data

Results flagged for a closer look

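At 31.5 °C, replicate 4 of Gsta4 stood apart from the other 3 arrays: its gap to the nearest array was 0.901 of the group's range on the log2 scale (4305 against 5869 to 6073). It was the 1 group so marked among 28 examined, and chance marks about 1 in 20. Without that array the rise of Gsta4 was 1.29.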

How the results depend on the processing

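The 3 alpha rises kept their direction and passed under each alternative that tested them; with the filter at the 70th percentile Gsta3 was not tested. The count of changed member probe sets, 3, became 6 with the replicate block and 5 with the block without pair 4, and was 3 to 4 with 1 array left out. No pair of genes passed in any setting run, the sign-flip test of the paired (block) differences included, whose smallest p is 0.125. The count of all changed probe sets, 3007, became 1656 with common median scaling, 1787 with the brightest and 1286 with the mean probe set per gene, and 5938 with the block. With 1 array left out it was 1588 (without replicate 3 at 31.5 °C) to 2755 and moved by over 1.5 times also without replicate 1 or 2 at 31.5 °C or 2 at 37 °C (1774, 1743 and 1735). Common median scaling moved the median of all probe sets to 0.08 and the share of higher values among the changed ones from 48.9% to 61.4%, and no further member passed with it.

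Of the values that changed sign, the -0.04 of Gstt1 became 0.046 with common median scaling, 0.013 with array weights and 0.00994 with the block without pair 1, and ran from -0.28 to 0.25 with 1 array left out. The variable Gsto1 set (0.25) gave -0.083 with the block without pair 4 and -0.019 to 0.69 with 1 array left out. Under the same omissions the change of Gstp1 against Gstt1 ran from -0.056 to 0.39, that of Gstm1 against Gstm5 from -0.076 to 0.035, and that of the pericyte marker Rgs5 from -0.16 to 0.92. Nfe2l2 gave 0.77 with the mean of its probe sets. The cause of these changes was not tested. The number of arrays limits the precision.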
